A study of Mus musculus with 188 samples.

Results

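Haploid mouse embryonic stem cells caught early in S phase were compared with cells of the same line that had moved on toward the middle of S phase. Progress of a cell was the percent of its autosomal bins of 50 kb that the deposited binarized profiles give as replicated. The early S cells were chosen by this value as those under 40%, which gave 11 of the 75 haploid cells with values, and the 6 cells from 40% to under 50% are called mid S cells. Because the cells were chosen on the binarized states, every difference between the early and the mid S cells in these states or in the scores behind them is a description with no test.

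All haploid cells were nuclei of H129-2, a haploid line of strain 129, sorted singly from S phase by DAPI content after culture in N2B27+2i+LIF medium. The other line, F121-9, is a diploid cas/129 hybrid grown in the same medium, and 63 of its S-phase cells were used as an independent set. The series lists 188 samples, of which 138 had values matched here. Each line stands for a single genotype, no cell was treated, and nothing in the labels ties the cells to separate cultures, so a spread between cells is a spread within what may be 1 culture and 1 sort.

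Cells copy their genome along a schedule that is largely fixed for a cell type. Origins in gene-dense, G + C-rich and transcribed chromatin fire first, forks then spread through domains that can be megabases long, and gene-poor chromatin at the nuclear periphery is copied last. In a haploid nucleus each sequence is present once before its replication, so a higher copy number along the genome of a cell marks the stretches it has already copied.

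Progress of the early S cells, named by their plate wells, was 24.6% in G8, 27.3% in A7, 27.7% in A3, 28.03% in A5, 29.1% in A12, 29.6% in A2, 30.5% in A1, 35.98% in A9, 36.7% in D12, 38.6% in A4 and 38.7% in A6. The mid S cells stood at 41.04% in A8, 43.8% in C1, 46.5% in A11, 47.97% in E4, 49.7% in B5 and 49.8% in D1. The members nearest the limit of 40% were A4 and A6, the first cell outside it was A8, and the first cell beyond the mid S cells, C7, had 51.04% of its bins replicated. The members therefore fall into 7 cells from 24.6% to 30.5% and 4 cells from 35.98% to 38.7%. In length, they had copied from 574 to 904 Mb of the autosomes, with a median of 692 Mb.

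Plate row A held 9 of the 11 early S cells and only 2 of the mid S cells, so plate row and early progress cannot be told apart over most members. In the study, haploid nuclei were also taken through wider gates reaching the start and the end of S phase, and the labels do not say which well came from which gate. G8, the earliest cell, came from row G, whose cells had a median progress of 83.6%. Cell A12 stood apart from the rest. It had 308 replicated domains against 457 to 572 in the other 10 members. It had replicated 70.5% of the earliest decile of the genome against 78.4% to 95.3% in the others. Its smoothed score correlated with the average of the other haploid cells at r = 0.53. The other members had r from 0.55 to 0.75, so A12 was only just the lowest on this measure. Depth per cell is not known from these values, and its part in the profile of A12 was not tested. First-firing bins, domain length, the shares of bins ahead and the count of recurrently ahead bins are also given without A12. Other values for the early S cells include it unless stated.

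Bins replicated in at least 9 of the 11 early S cells are called first-firing bins here, whether or not replication began in them. There were 8278 of them among 46743 autosomal bins with a state, or 17.7%, together 414 Mb. Of these, 4176 bins were replicated in every early S cell, which is 8.93% of the autosomal bins. At the other end, 16449 bins, or 35.2%, were replicated in no early S cell. The bins in between fell from 6488 for exactly 1 member to 3685 for 2. Each count from 3 to 10 members then held 1785 to 2394 bins. Since the rule that chose the members used these states, the shares describe the cells and nothing is read from them. First-firing bins numbered 9119 with A12 left out and 6863 when only the members under 35% progress were used, and 98.6% of the latter set were in the full one.

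Base composition and gene content, which the rule did not use, changed steadily with the number of early S cells that had copied a bin. Mean G + C content rose from 38.9% ± 2.44 (SD over 16437 bins) where no member had replicated to 47.3% ± 3.59 (SD over 4171 bins) where all had, against 41.9% over all bins. Starts of protein-coding genes lay at 2.78 per Mb in bins no member had replicated, at 10.9 per Mb in bins replicated in 4 to 8 members and at 21.5 per Mb in first-firing bins, against 8.58 per Mb over all bins. In bins replicated in every member the density reached 25.4 per Mb. The share of bins without any such start fell from 89.3% to 34.3% between the ends of the scale. Amplification yield can also follow base composition, and since G + C content moves with the number of members, its part in the calls was not tested beyond the correction that the authors applied with control cells.

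**Figure D1:**
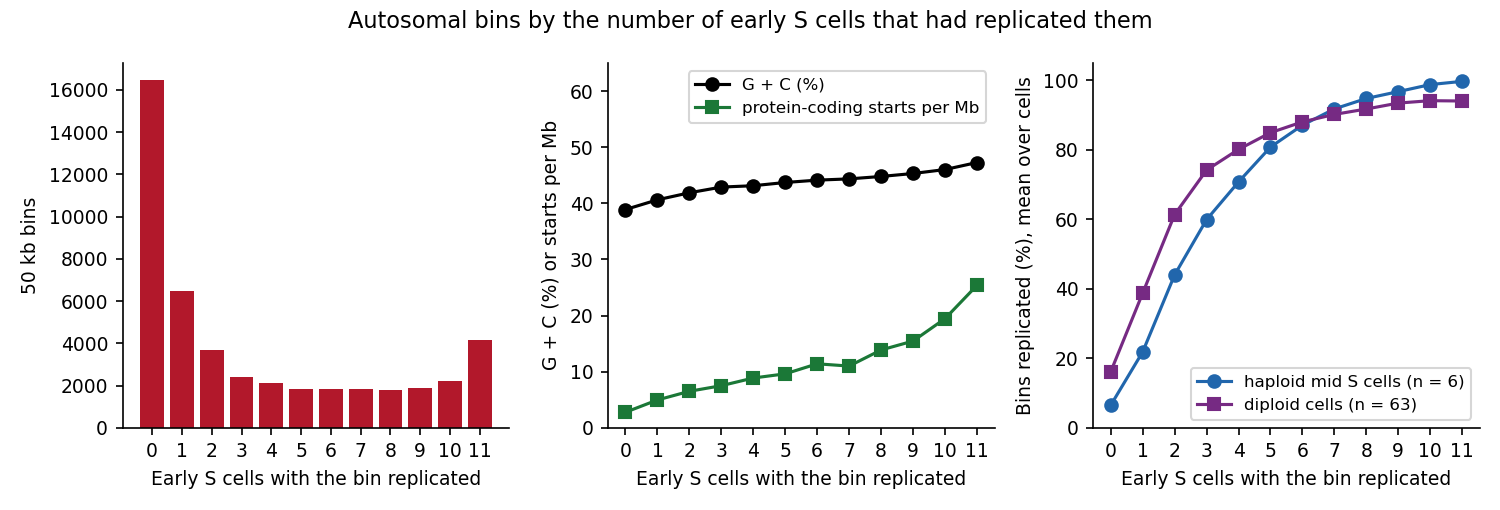
Autosomal 50 kb bins by the number of early S cells (x axis, 0 to 11) that had replicated them. Left, bins for each count, highest at 16449 for no cell. Middle, mean G + C content in percent (circles) and protein-coding gene starts per Mb (squares). Right, percent of the bins replicated in 6 haploid mid S cells (circles) and 63 diploid cells (squares), mean over cells, which climbs from 6.50% and 16.2% to 99.7% and 94.1%.

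The same gradient appears in the letters of the promoters. The windows below are the 250 bases upstream of 4 gene starts, read on the strand of the gene from RefSeq on build GRCm38.p6, and each CG dinucleotide is in capitals. Cdt1 and Lin28a lie in bins replicated in all early S cells and Orc4 and Dpp10 in bins replicated in none. They show both the usual contrast and its exceptions.
Cdt1, chr8:122567765-122568014, plus strand: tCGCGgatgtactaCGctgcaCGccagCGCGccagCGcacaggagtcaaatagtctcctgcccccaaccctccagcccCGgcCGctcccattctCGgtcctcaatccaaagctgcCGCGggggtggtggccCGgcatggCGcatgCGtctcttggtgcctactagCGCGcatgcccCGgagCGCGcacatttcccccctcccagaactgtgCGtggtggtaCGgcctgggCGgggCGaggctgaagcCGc
Lin28a, chr4:134018817-134019066, minus strand: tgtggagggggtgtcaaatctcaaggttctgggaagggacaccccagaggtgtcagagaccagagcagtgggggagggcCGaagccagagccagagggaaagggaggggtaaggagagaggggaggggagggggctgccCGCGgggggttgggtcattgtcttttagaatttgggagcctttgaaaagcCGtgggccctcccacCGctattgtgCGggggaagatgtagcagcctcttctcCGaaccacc
Orc4, chr2:48950082-48950331, minus strand: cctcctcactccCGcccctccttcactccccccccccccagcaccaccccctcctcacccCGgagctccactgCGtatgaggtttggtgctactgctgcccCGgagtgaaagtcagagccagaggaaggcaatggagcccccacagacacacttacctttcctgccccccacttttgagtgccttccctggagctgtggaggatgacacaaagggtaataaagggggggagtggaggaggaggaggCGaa
Dpp10, chr1:124045560-124045809, minus strand: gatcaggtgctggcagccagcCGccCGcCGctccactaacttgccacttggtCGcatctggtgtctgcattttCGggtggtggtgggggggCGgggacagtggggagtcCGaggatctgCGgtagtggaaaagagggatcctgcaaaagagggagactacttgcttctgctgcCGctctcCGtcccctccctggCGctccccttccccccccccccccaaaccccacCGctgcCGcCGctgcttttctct

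Cdt1, which loads the replicative helicase onto origins, carries 25 CG dinucleotides in this window, and Orc4, a subunit of the origin recognition complex, carries 5. Lin28a has 7 although its bin was replicated in every member, and Dpp10, a neuronal gene in late chromatin, has 14. CG reads the same on both strands. Over the 15180 matched promoters of protein-coding genes, 54.6% held at least 10 CG in 250 bases. The share was 66.5% of the 4153 promoters in bins replicated in every member and 30.8% of the 1710 in bins replicated in none, with medians of 14 and 3 CG. A 50 kb bin cannot place a start of replication within a promoter, and the count of CG is given as a description of the sequence replicated early.

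The bins replicated in every member formed 190 stretches of at least 5 bins, with a median length of 750 kb. The 6 longest stretches lay on 6 chromosomes and were all gene-dense. The longest ran over 6000 kb at chr4:131850001-137850000 and overlaps 130 protein-coding genes. These include Lin28a, whose product blocks maturation of let-7 microRNAs in stem cells, Arid1a, a subunit of a chromatin remodelling complex, Rpa2, part of the complex that coats single-stranded DNA at forks, the histone demethylase gene Kdm1a and the genes of the translation and signalling proteins Rpl11 and Cdc42. The next, chr2:28750001-33500000 over 4750 kb, holds Abl1, the transcription kinase gene Cdk9 and Nup214, a nuclear pore gene. A stretch of 4500 kb at chr5:120900001-125400000 holds Ptpn11, Kdm2b and the calcium pump gene Atp2a2.

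The fourth stretch, chr19:3600001-7650000, covers 4050 kb and 176 protein-coding genes, among them Pola2 and Pold4, which encode subunits of DNA polymerases alpha and delta, the acetyltransferase gene Kat5 and Rela. On chromosome 7 a stretch of 3800 kb at chr7:27100001-30900000 holds Akt2, the nucleolar methyltransferase gene Fbl, Rps16 and Supt5. On chromosome 11 a stretch of 3750 kb at chr11:100200001-103950000 holds Stat3, Stat5a and Stat5b, which encode transcription factors downstream of cytokine receptors such as that of LIF, together with Ezh1 and Becn1. Mean G + C content of the 6 stretches ranged from 47.8% to 49.4%. In the diploid line, 90.4% to 96.4% of their bins were replicated, averaged over all cells. Their place on the diploid schedule was more spread than on the haploid one. On a scale from 0 for the earliest bin to 100 for the latest, they stood at 7.2 to 11.4 in the haploid average and at 9.3 to 29.6 in the diploid average, the chromosome 11 stretch last.

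Chromosomes differed widely in how much of them was copied early. In the early S cells 53.5% ± 6.18 (SD, n = 11) of chromosome 11 was replicated, 42.1% ± 5.81 of chromosome 19 and 39.7% ± 5.93 of chromosome 17, against 17.3% ± 4.56 of chromosome 3 and 16.3% ± 4.95 of the X. First-firing bins made up 39.6% of chromosome 11 but 5.82% of chromosome 3 and 5.62% of chromosome 13. Chromosome 11 was the most replicated autosome in 10 of the 11 members, with chromosome 19 ahead of it in A12. Chromosome 3 was the least replicated autosome in 7 members. Aneuploid chromosomes had been rescaled by the authors, so a share of a single chromosome in a single cell is less firm than the means.

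Between the early and the mid S cells, chromosome 13 gained the most, from 23.7% ± 8.57 (SD, n = 11) to 46.9% ± 6.32 (SD, n = 6), a difference of 23.2 points. Chromosome 10 gained 18.8 points and chromosome 17 the least, 11.4 points. The mean over all autosomes rose by 14.9 points, which the choice of cells fixed. Chromosome 13 was thus near the bottom in the early S cells and close to the genome mean of 46.5% in the mid S cells.

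**Figure D2:**
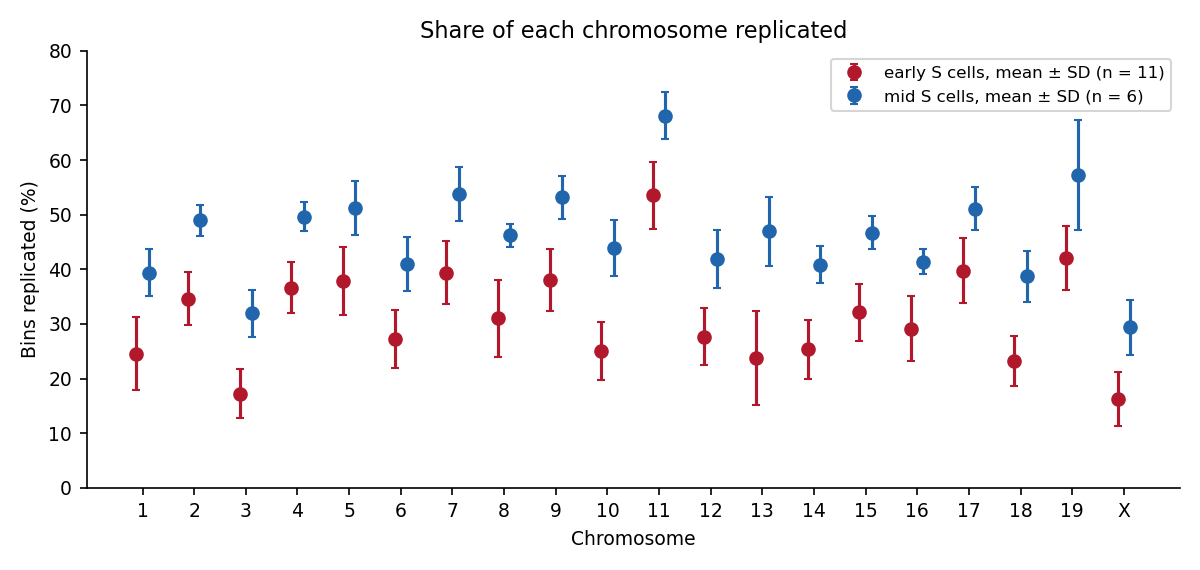
Percent of the bins of each chromosome (x axis) replicated in early S cells (red, n = 11) and mid S cells (blue, n = 6), mean with SD over cells. Chromosome 11 is highest in both groups, chromosome 3 and the X are lowest in the early S cells, and the widest gap is at chromosome 13, 23.2 points.

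A replicated domain was a run of replicated bins on 1 chromosome, joined across gaps of up to 5 masked bins. The early S cells held from 308 to 572 domains, with a median of 491, and the mid S cells from 510 to 576. Apart from A12 the counts were thus much alike over the range of progress, and 4 early S cells had at least as many domains as the lowest mid S cell. The length of the domains moved more. The median length was from 800 to 1750 kb in the early S cells, with a median over cells of 950 kb, and from 1050 to 1350 kb in the mid S cells, with a median of 1275 kb. The group means were 1041 ± 276 kb (SD, n = 11) and 1250 ± 114 kb (SD, n = 6), a difference smaller than the SD of the early S cells. The highest value, 1750 kb, was that of A12. Without it the early mean was 970 ± 151 kb and the difference 280 kb instead of 209 kb. Within row A the means were 1067 kb for 9 early and 1200 kb for 2 mid S cells, and in the other rows 925 kb for 2 and 1275 kb for 4.

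Mean length went from 1543 ± 334 kb, or 1476 ± 263 kb without A12, to 2023 ± 181 kb. The share of replicated DNA in domains over 2 Mb was 36.4% in G8, the earliest cell, 52.6% at the median of the early S cells and 67.01% at the median of the mid S cells. A12 had 74.2%, the highest of all 17 cells, and the groups overlapped. Unreplicated stretches shortened in parallel, from a mean over cells of the median length of 1839 ± 259 kb to 1500 ± 61.2 kb. The largest single domain measured between 8800 kb in A3 and 19250 kb in A9, and between 15050 and 22700 kb in the mid S cells. In 4 early S cells, G8, A7, A2 and D12, it lay within chr17:23400001-37300000, and in 4 others, A5, A12, A1 and A9, on distal chromosome 4, where it overlapped the longest stretch replicated in every member. In G8 it was chr17:23400001-34350000.

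**Figure D3:**
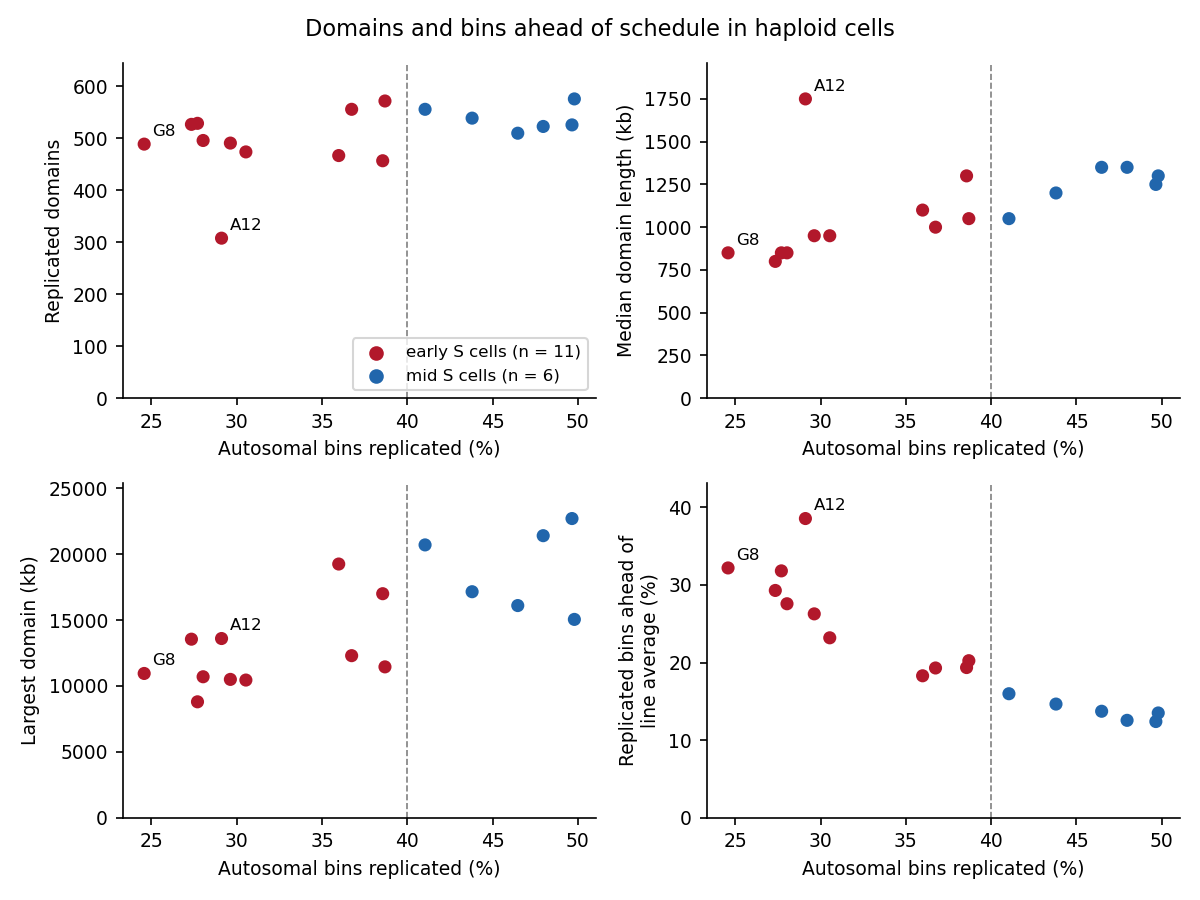
Each point is a haploid cell, placed by the percent of its autosomal bins replicated (x axis); red, 11 early S cells; blue, 6 mid S cells; dashed line, the limit of 40%. The panels give the number of replicated domains, their median length in kb, the largest domain in kb and the percent of replicated bins ahead of the line average. A12 lies apart with 308 domains of median 1750 kb.

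How the replicated genome grows was read from the share of each cell's replicated bins that the early S cells already had. First-firing bins made up 63.7% of the replicated bins of G8 and 44.97% of those of A6, the latest member, and 37.8% ± 2.74 (SD, n = 6) in the mid S cells. The mid S cells had copied 97.9% to 99.2% of all first-firing bins, so what they added lay elsewhere. Bins replicated in 4 to 8 members made up 36.9% of their replicated bins, bins of 1 to 3 members 20.5% and bins of no member 4.84% ± 1.39. Counted likewise against the other 10 members, 4.01% ± 2.22 (SD, n = 11) of the replicated bins of an early S cell were replicated in no other member, with a range from 1.99% to 9.98%, so the groups overlapped. Of the 4176 bins replicated in every early S cell, 4107 were replicated in every mid S cell.

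Of the bins outside the first-firing set that the mid S cells had replicated, 21.1% ± 1.79 (SD, n = 6) lay within 250 kb of a first-firing bin, 25.1% from 250 kb to 1 Mb and 53.8% ± 2.06 over 1 Mb away. All 38465 bins outside the set were distributed as 8.39%, 17.6% and 74.05%, so the replicated ones lay nearer to first-firing bins than such bins did on average. The profiles were smoothed over 15 windows by the authors, which binds neighbouring bins to each other. Domains that held no first-firing bin made up 42.4% ± 5.93 of the domains of the early S cells and 55.1% ± 1.86 of those of the mid S cells. They were short, with a median length of 698 ± 114 kb in the early and 825 ± 52.4 kb in the mid S cells, whereas domains with a first-firing bin measured 1530 ± 367 kb and 2425 ± 295 kb. The early S cells chose the first-firing bins, so their lower share of domains without one is built into the set. A longer domain is also likelier to hold a bin of the set. The contrast in length is thus partly fixed in advance, and nothing is read from it.

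**Figure D4:**
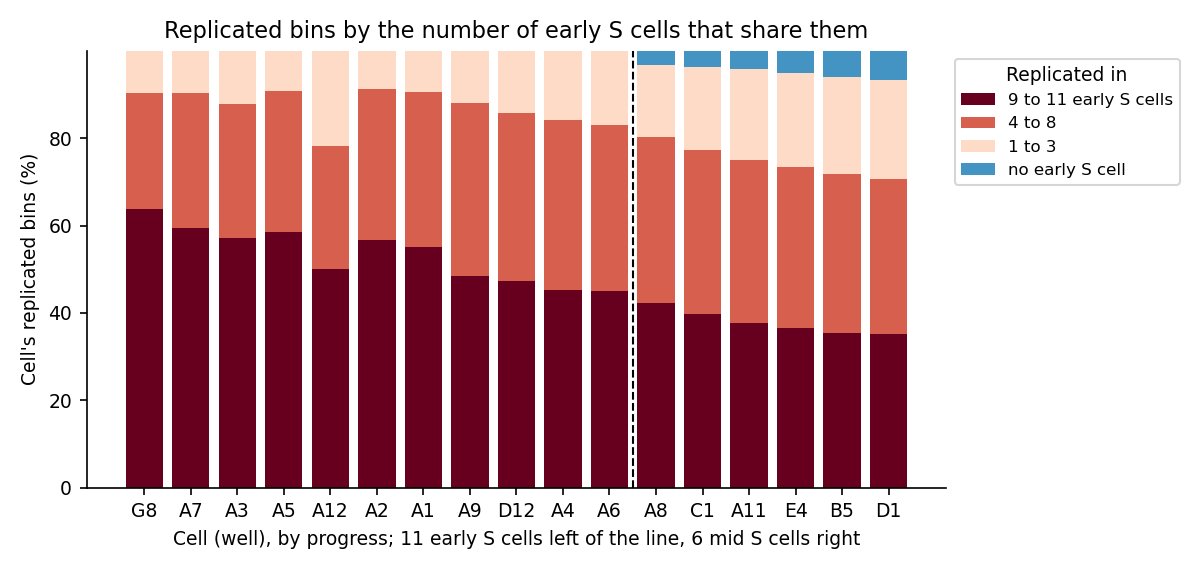
Replicated bins of each cell (bars, in percent of the bins of that cell) by how many of the 11 early S cells had replicated them; cells ordered by progress, with 11 early S cells left of the dashed line and 6 mid S cells right of it. The dark share falls from 63.7% in G8 to 35.3% in D1, and the blue share, 3.18% to 6.75%, is DNA that no early S cell had copied and is 0 in the early S cells by construction.

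Some regions went from no early S cell to nearly all mid S cells. In all, 68 bins, or 0.15% of the autosomal bins, were replicated in none of the 11 early and at least 5 of the 6 mid S cells. The cells were chosen by progress, so nothing is read from this count. Of the 16449 bins that no early S cell had replicated, 12475 were replicated in no mid S cell either. The longest run of the 68 bins was chr11:44200001-44900000, 700 kb that include the interleukin gene Il12b, Ublcp1, Rnf145 and part of Ebf1, a B-cell transcription factor gene. It was replicated throughout in A8, A11, E4, B5 and D1 and not at all in C1. The next was chr2:145700001-146000000, with Rin2, Naa20, Crnkl1 and Cfap61, replicated in full in 5 mid S cells and to 83.3% in A8.

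To ask which bins ran ahead, the bins were ranked by the mean smoothed score of the other 74 haploid cells, from 0 for the earliest to 100 for the latest. A replicated bin was counted as ahead where its place was later than the progress of the cell on the ranked bins, 45113 in all. A cell that followed the line average to the letter would have none. In the early S cells 18.3% to 38.55% of the replicated bins were ahead, with a median of 26.3%, and in the mid S cells 12.4% to 15.99%, with a median of 13.6%. The groups did not overlap. The share is counted against the progress of each cell and over its replicated bins, and the cells were chosen by progress. A difference between the groups is therefore no measure of departure from the schedule. The means were 26.01% ± 6.58 (SD, n = 11) and 13.8% ± 1.35 (SD, n = 6), or 24.8% ± 5.37 without A12 for the former. Within plate row A the 9 early S cells had a mean of 26.1% and both mid S cells lay below all of them, at 15.99% and 13.7%. In the other rows G8 and D12 had 32.2% and 19.3% and the 4 mid S cells 12.4% to 14.7%. Within the early S cells the 7 below 35% progress had 23.2% to 38.55% ahead and the 4 later ones 18.3% to 20.2%.

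Most leads were small. Bins ahead by more than 10 points made up 13.1% ± 5.31 of replicated bins in the early and 5.57% ± 0.70 in the mid S cells, and bins ahead by more than 20 points 6.10% ± 3.95 and 1.76% ± 0.40. A12 had 16.1% of its bins ahead by more than 20 points against 2.13% to 9.04% in the other members. As a number of bins rather than a share, the difference was smaller, with 2976 to 5062 bins ahead in the early and 2729 to 3045 in the mid S cells, and the groups overlapped. Along the schedule, the early S cells had replicated 86.2% ± 8.10 of the earliest decile, 43.6% ± 11.1 of the fourth, 11.9% of the sixth and 0.59% of the last, and the mid S cells 98.3% ± 1.06, 77.5% ± 7.59, 30.3% and 0.33%. The largest difference, 33.9 points, was in the fourth decile. A gap of this kind follows from the choice of the cells by progress and shows no departure from the schedule.

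The scores of the early S cells were also skewed, at 0.99 ± 0.34 against 0.30 ± 0.15 in the mid S cells, and correlated less with the average of the other cells, at r from 0.53 to 0.75 against 0.79 to 0.83. Each r is over bins within 1 cell, which are not independent. Between the groups, skew moved with the share of bins ahead. A12 had the highest share ahead but a skew of 0.90, below the early median of 0.94. The part of skew in that share was not tested.

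**Figure D5:**
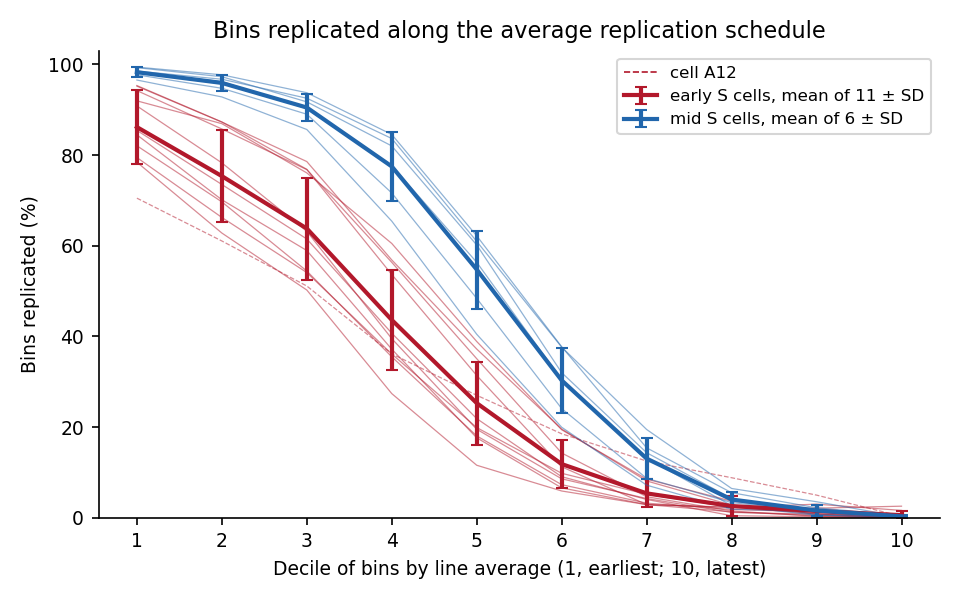
Percent of bins replicated (y axis) in each decile of the autosomal bins ordered by the line average (x axis, 1 earliest, 10 latest). Thin lines are cells and thick lines the mean with SD of 11 early S cells (red) and 6 mid S cells (blue); A12 is dashed. The groups are farthest apart in the fourth decile, 43.6% against 77.5%, and A12 is lowest in the first decile and highest of the early S cells in the seventh.

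Of the ranked bins, 7148 were ahead by more than 10 points in exactly 1 early S cell, 2970 in 2 and 1087 in 3. Bins ahead to this degree in at least 4 members numbered 741, or 1.64% of the ranked bins, and no bin was ahead in 10 or more. Without A12 the count was 525. These bins formed 40 regions of at least 5 bins, 265 bins in all, with a median length of 300 kb. The 6 with the most members ahead are described next, with their place on the haploid schedule.

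A region of 250 kb at chr1:85650001-85900000, place 48.2, overlaps Sp100, a nuclear body gene, Cab39 and Itm2c. On average 6.8 members were ahead there. It was replicated throughout in G8, A12, A9, D12, A4 and A6, to 80% in A5 and A1 and not at all in A7, A3 and A2. A neighbouring region at chr1:84700001-85000000, place 52.9, holds the ubiquitin ligase gene Trip12, Fbxo36 and Slc16a14, with 6.33 members ahead by a mean of 20.3 points. It was replicated in full in A12, A2, A9, D12, A4 and A6 and not at all in G8, A3 and A5. The sets of cells shared A12, A9, D12, A4 and A6 and differed at G8 and A2.

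The region chr15:102350001-102700000, place 40.4, was replicated in all 11 early and all 6 mid S cells and in 96.6% of the later haploid cells. It holds Sp1, a general transcription factor gene, Sp7, Pcbp2 and Amhr2. Ranked by the binarized states instead, it stood at 13.3 and none of its 7 bins was counted as recurrently ahead. The other 5 regions stood at 31.2 to 39.7 on that scale, where 3 of their bins were still counted so.

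The region chr17:16800001-17050000, place 50.6, overlaps no protein-coding gene and has a G + C content of 39.1%, the lowest of the 6. It was replicated throughout in A7, A12, A2 and A4 and not at all in A3, A5 and A9. At chr14:51750001-52050000, place 46.3, the genes include Ndrg2, Mettl17 and the zinc finger gene Zfp219, and 5.83 members were ahead on average. The last, chr2:83450001-83950000, place 52.9 and 500 kb long, holds Itgav, an integrin gene, and Zc3h15. It was replicated in A9, A4 and A6 in full and not at all in G8, A7, A3 and A5. With the diploid average as the schedule, 6, 5 and 10 bins of the regions on chromosomes 15, 17 and 2 were still counted as recurrently ahead, and none of those on chromosomes 1 and 14.

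Some bins of the earliest decile of the line average, which rests mostly on later cells, lagged in the early S cells. Of the 4511 bins of this decile, 46.8% were replicated in every member and 79.3% in at least 9, 50 in at most 4 and 0 in none. The longest lagging run, chr17:85750001-86250000, holds Srbd1 and Prkce, a protein kinase C gene, and stood at place 5.05. It was replicated in full in A1, D12 and A4, to 40% in A5 and not at all in the other 7 members, while 99.3% of it was replicated in later haploid cells. Close by, chr17:85550001-85700000 with the homeobox genes Six3 and Six2 was replicated in A2, A1, D12 and A4. A run of 150 kb at chr3:101100001-101250000 in Ptgfrn was replicated in A7, A1 and A9 and in all 6 mid S cells. One of 150 kb without a protein-coding gene at chr19:55950001-56100000 was replicated in A3, A1, D12 and A4. The other runs were not complete in the mid S cells. C1 lacked the Srbd1 and Prkce run, A8 and C1 the Six3 and Six2 run, and A11 the chromosome 19 run. On the diploid schedule the runs stood, in the order named, at places 27.3, 14.7, 0.14 and 47.8.

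Genes were placed by the bin of their start. Of 20021 autosomal protein-coding genes with a state, 8897, or 44.4%, started in first-firing bins, and 2287, or 11.4%, in bins that no early S cell had replicated. Of the core pluripotency genes, which hold stem cells in the undifferentiated state, 13 of 20 were in first-firing bins and 0 in bins of no member, and the median gene was replicated in 9.5 members. All 11 early S cells had copied the bins of Pou5f1, a master regulator of pluripotency, Esrrb and Tfcp2l1, nuclear factors of the naive state, Klf2, Prdm14, Lin28a and the growth factor genes Fgf4 and Tdgf1. Sall4 was unreplicated in A3 and Dppa5a in A4.

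Nanog and Dppa3 lie on the same stretch of chromosome 6 and were both unreplicated in A7 and A12. Klf5 was unreplicated in G8 and A12, and Klf4 in A5, A12 and A9. Sox2, the partner of Pou5f1, was replicated in 7 early S cells and unreplicated in G8, A5, A12 and A2, although its bin stands at place 7.61 in the haploid average. Utf1 was replicated in 7, and Dppa2, Dppa4, Tbx3 and Zfp42 in 5 each. Per cell, the early S cells had copied 12 to 20 of the 20 genes, with a median of 16, and the mid S cells 18 to 20.

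The smoothed score, which has no fixed unit and is centred in each cell, is the profile from which the states were derived and so no separate support for them. At the bin of Lin28a it ran from 0.71 to 1.90, with a median of 1.41, over the 10 early S cells with a score. At Pou5f1 it ran from 0.58 to 1.60 over 9 cells, with a median of 0.99. At Nanog the scores ran from -0.28 to 1.90, with a median of 0.82, at Sox2 from -0.26 to 1.19, with a median of 0.10, and at Zfp42 from -0.82 to 1.31, with a median of -0.07. In the mid S cells Sox2 ran from 0.63 to 1.68.

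Among the genes of the replication machinery, 14 of 29, or 48.3%, started in first-firing bins, close to the share of all protein-coding genes, and 1 in a bin of no member. Every early S cell had copied Cdt1 and Cdc6, which load the helicase, Orc6, Gins3, the polymerase genes Pold1 and Pole, and Ticrr, an activator of origin firing. Gins2, Mcm7, Orc1 and Rrm1, the large subunit gene of ribonucleotide reductase, were replicated in 10 members and Pcna, the sliding clamp gene, Cdc45 and Orc3 in 9. The other helicase subunit genes had lower counts, with Mcm6 replicated in 6 members, Mcm2 and Mcm4 in 5, and Mcm3 and Mcm5 in 3. On the haploid schedule the Mcm genes ran from place 11.7 for Mcm2 to 42.3 for Mcm6. Mcm7 stood at 31.1, so the counts did not follow the places. Of the other origin and helicase genes, Gins1 was replicated in 8 members, Orc2 in 7, Gins4 in 6 and Orc5 in 2. Rrm2, which encodes the small subunit of ribonucleotide reductase, was replicated in 5, and Gmnn, the gene of the licensing inhibitor geminin, in 3. Rif1, which delays late origins, was replicated in 7, the kinase gene Cdc7 in 1 and its activator Dbf4 in 4. Orc4 was in a bin that no early and 1 mid S cell had replicated, and its scores in the early S cells ran from -0.96 to -0.08. The early S cells had copied from 14 to 24 of these genes and the mid S cells from 22 to 29.

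Ribosomal protein genes started in first-firing bins in 47 of 71 cases, or 66.2% against 44.4% of all protein-coding genes. Only Rpl10l was in a bin of no member. Replication-dependent histone genes split by cluster. The 10 genes of the Hist2 cluster on chromosome 3 were replicated in all early S cells, whereas the 54 genes of the Hist1 cluster on chromosome 13, in 11 bins, were replicated in 1 to 4. These genes share few bins, so 10 of 66 in first-firing bins, or 15.2% against 44.4% of all protein-coding genes, stands for 15 bins. The Hox clusters, which encode body axis regulators silent in these cells, split likewise. Hoxc was replicated in 11 early S cells, Hoxb in 10 or 11, Hoxa in 3 and Hoxd in 1 or 2. The Hoxa cluster lacked replication in 8 members but stood at places 19.4 to 21.8, and 5 of the 6 mid S cells had copied it.

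Very long genes, typical of late-replicating chromatin, were in first-firing bins in 1 of 19 cases, Ctnna3, or 5.26%. They were in bins of no member in 7, or 36.8%, among them Lrp1b, Csmd1, Csmd3, Dpp10, Lsamp and Pcdh15. Scores at Lrp1b ran from -1.18 to -0.31 in the early S cells. Olfactory receptor genes were in first-firing bins in 70 of 1114 cases, or 6.28%, and in bins of no member in 414, or 37.2%. Of these 70, 24 were on chromosome 11. Vomeronasal receptor genes had 6 of 221, or 2.71%, in first-firing bins and 67, or 30.3%, in bins of no member. The same shares were 44.4% and 11.4% of all protein-coding genes, and 17.7% and 35.2% of all autosomal bins. The shares of these lists in bins of no member thus lay near that of all bins and above that of all protein-coding genes.

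The cells of the diploid hybrid line had no part in choosing the first-firing bins. With the homologs of each cell averaged, the 63 diploid cells had replicated 93.95% ± 11 (SD, n = 63) of the first-firing bins and 53.9% of all autosomal bins. The difference was 40.1 ± 8.70 points, higher in 63 of 63 cells, with a range from 10.51 to 56.4 points (two-sided permutation test of sign flips with 100000 resamples, p = 2e-05, the smallest value it can give). Over the 15 diploid cells under 50% progress the difference was 45.8 ± 12.1 points. Cells of 1 sort are not separate cultures, so this p measures the spread between cells. Both lines are embryonic stem cells and a schedule is largely fixed for a cell type. A difference above 0 was therefore to be foreseen, and nothing beyond its size is read from the p.

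The bins that no early S cell had replicated were replicated to 16.2% ± 8.23 in the diploid cells. The 4 diploid cells under 40% progress were uneven. F8 at 39.5% and A5 at 38.4% had copied 95.9% and 86.4% of the first-firing bins, whereas A2 at 18.2% and C7 at 20.3% had copied 44.6% and 30.8%. Even the latter values lay above the progress of these cells, by 26.4 and 10.51 points, and they had replicated 4.16% and 6.92% of the bins of no member.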

How the data were processed

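The members, limits and gene lists were chosen with earlier results of these data known. Single S-phase nuclei were amplified and sequenced at low coverage. According to its methods, reads were aligned by the authors to mm10 using Bowtie 2 and counted in 50 kb windows. Windows that were extreme or poorly mappable in control cells from G1 and G2 were masked, and counts scaled to the reads of the cell were divided by the control mean. The authors then centred and scaled each cell, removed its extreme values and median-smoothed over 15 windows. The deposited smoothed score has no fixed unit. The deposited binarized states, another kind of value than the score, come from segmenting that profile and applying a threshold for each cell. Both haploid columns of a cell were matched to its label by well, and 24 columns that matched no labelled sample were not used. Reads per cell are not known from these values, so no counting interval is given.

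Bins needed a state in all haploid cells, and ranked bins a score in at least 50% of them. Named stretches were the 6 longest replicated in every member, the 6 recurrently ahead regions of at least 5 bins with the most members ahead, and the 4 longest runs of the earliest decile with the fewest members. The limit of 4 members for lagging runs and the listing of gained regions were set after values were seen. Genes came from GENCODE M21 and sequence from RefSeq GRCm38.p6. Python 3.11.15, pandas 2.3.3, NumPy 2.4.6 and SciPy 1.17.1 were used, and domain and lead calling were tested on simulated data.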

Additional observations from a re-analysis of the deposited data

Results flagged for a closer look

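The early S cells, 11 in number, were too many for the gap test used here on groups of 4 to 10. Among the 6 mid S cells, 39 measures were checked, and 2 showed a cell whose distance to its nearest neighbour took up more of the range of the group than the 95% critical value allows. Both concern A8, the mid S cell with the lowest progress. It had replicated 42.06% of chromosome 8, where the next mid S cell had 46.41%, and 34.49% of chromosome 13, where the next had 47.43%. Chance flags about 1 in 20 groups, and 2 of 39 is about that share. Chromosome 13 is the chromosome with the widest gap between the early and mid S cells.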

How the results depend on the processing

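Of 41 alternatives to 16 results, 31 left the value within the spread between cells or the count within 1.5 times, 10 did not and 0 turned a direction. A count could not turn a direction. For median domain length the spread allowed, 276 kb, was wider than the difference itself, 209 kb, so its kept settings say little about its stability. First-firing bins fell to 4176 when every member was required. Recurrently ahead bins varied most, with 54 at a lead of over 20 points, 1828 with at least 3 members, 112 with at least 6, 1672 by the diploid line average, 370 by binarized states and 1832 by the line average of haploid cells with 50% or more replicated, the last 2 chosen after seeing the data like all settings that leave out A12 or G8. The diploid line average shared 438 bins with the main set and the binarized one 267. Of the mid S cells' replicated bins outside all bins that any member had replicated, 8.23% lay over 1 Mb from that set, a share of other bins than the 53.8% that lay over 1 Mb from the first-firing set. Very long genes in first-firing bins went from 1 to 0 by gene midpoint. The ratio of gene density between first-firing bins and bins of no member was 7.74 for protein-coding starts and 3.53 for all gene starts. The difference in bins ahead ranged from 9.22 to 17.4 points and that in median domain length from 217 to 325 kb over their alternatives, with 480 kb for mean length. The 9.22 came from a line average of the other members of the same group. That setting, and domain length in members under 35% progress, were also chosen after seeing the data. No paired analysis was possible because cells carry plate wells and no replicate numbers that pair them. Depth per cell is unknown, and bins of 50 kb smoothed over 15 windows limit the shortest domain that can be seen.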
